A study of Mus musculus with 17 samples.

Results

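The genes described here are 10 heat shock genes, chosen by symbol from the 25899 symbols of the deposited count table: the transcription factor gene Hsf1 and 9 chaperone or co-chaperone genes, Hspa1a, Hspa1b, Hspa8, Hspa4, Hsph1, Dnajb1, Hsp90aa1, Hsp90ab1 and Hspb1. All 10 were found. Their new RNA was measured in 17 libraries of mouse embryonic stem cells (E14tg2a line, 129SV background). In every group Erk1 and Erk2 were both knocked out, and the only ERK came from a FLAG-ERK2 Q103A transgene, an ERK2 whose kinase activity the compound PP1 is meant to block. Every group also carried cRAF-ErT2, a RAF kinase turned on by 4-hydroxytamoxifen (4OHT) that activates MEK and thereby ERK. All cells had spent 24 h in serum and LIF with 250 nM PD173074, an inhibitor of FGF receptors, after growth with Chir99021, an inhibitor of GSK3. The 6 groups were DMSO (clones b and c) and, each with clones a, b and c, 4OHT (250 nM, 2 h), a MEK inhibitor (MEKi, 1 µM), MEKi with 4OHT, PP1 (2 µM) and PP1 with 4OHT. RNA made in the last 15 minutes was labelled with 5 mM ethynyl uridine and captured by click chemistry. The replicates are clones of 1 cell line, so p-values measure the spread between libraries of these clones within groups. The labels call the DMSO group a 0 h control. The column names of the counts mark all groups without 4OHT as 0 h and all with 4OHT as 2 h. So the effects of 4OHT and of 2 h in the dish cannot be told apart where 4OHT groups are set against groups without it. How long cells had an inhibitor alone is not clear from the labels.

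Chaperones hold or refold unfolded proteins. HSF1 is the main transcription factor of the heat shock response: it is kept inactive in unstressed cells and, once released, binds as a trimer to inverted GAA repeats called heat shock elements. HSP70 proteins bind and release unfolded segments with ATP, J-domain proteins such as DNAJB1 bring them substrates, HSP110 proteins exchange their nucleotide, and HSP90 proteins mature kinases and other clients, RAF kinases among them. Hspa8, Hsp90ab1 and Hspa4 are made at high levels without stress, whereas Hspa1a and Hspa1b are nearly silent until heat or another proteotoxic stress.

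The libraries held 5239690 to 11093390 counts, and levels are given as CPM, counts relative to the library size after TMM scaling, mean ± SD over libraries. CPM is relative to that scaled size, so in these bulk samples fewer cells making a gene and less RNA per cell cannot be told apart. The 10 ES cell markers examined were all present, with a sum of 2885 to 3975 CPM. Fibroblast markers summed to 1.99 to 8.07 CPM, endoderm markers to 4.36 to 14.8 CPM and neural markers to 20.3 to 57.4 CPM, with Neurod1 and Tubb3 at 0. The neural sum moved with treatment, at 41.6 to 57.4 CPM in DMSO, 20.3 to 27.6 CPM with 4OHT and 26.5 to 33.8 CPM with PP1 and 4OHT, and its part in the results below was not tested. The ERK targets Fos, Dusp6, Etv4 and Ier3, the check of the treatment, all rose with 4OHT, by 4.09, 1.85, 1.70 and 1.36 on the log2 scale. With MEKi none of the 4 was called higher with 4OHT (edgeR adjusted p = 0.899 for Fos and 0.716 for Ier3), and Dusp6 fell from 24.4 ± 5.77 to 5.53 ± 0.347 CPM and Etv4 from 11.9 ± 1.12 to 2.41 ± 0.362 CPM (SD, n = 3). With PP1 all 4 still rose with 4OHT: Etv4 went from 13.2 ± 1.75 to 48.4 ± 0.565 CPM, beside 52.4 ± 2.09 with 4OHT alone, Dusp6 from 48.96 ± 1.31 to 155 ± 6.61 CPM, beside 277 ± 14.3, and Fos from 2.76 ± 0.844 to 11.9 ± 1.3 CPM, beside 102 ± 3.52. Of the 10 heat shock genes 9 passed the filter on low counts and were tested among the 14907 genes that passed. Hspa1a did not pass. A gene was called where edgeR's quasi-likelihood test gave a Benjamini-Hochberg adjusted p under 0.05, and each log2 change is followed by ± its approximate standard error.

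Promoter sequences show where some of these genes hold exact matches to heat shock elements. They come from RefSeq (GRCm38.p6), which held an entry for 6 of the 10 genes: Hspa1a, Hspa1b, Hspb1, Hsph1, Hspa4 and Dnajb1. The 300 bases around each start, 250 before and 50 after, were searched on both strands for the heat shock elements GAANNTTC and TTCNNGAA, which share a unit where a further one follows. Of 32851 promoters in that table, 7.86% held the first, 8.52% the second, 15.06% either and 0.6027% a run of 3 units. The 250 bases before the start are printed for the near-identical pair Hspa1a and Hspa1b and for Hspb1, which has 2 matches. For Hsph1, the gene with the largest response among those of high counts, 30 bases around each of 2 places are printed, the second of them after the start. All are written 5′ to 3′ with the matches in capitals.
Hspa1a, chr17:34972157-34972406 (- strand): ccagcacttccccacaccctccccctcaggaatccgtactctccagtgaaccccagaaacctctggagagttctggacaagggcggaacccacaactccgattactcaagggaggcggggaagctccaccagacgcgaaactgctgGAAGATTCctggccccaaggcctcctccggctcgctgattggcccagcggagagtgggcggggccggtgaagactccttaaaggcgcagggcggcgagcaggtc
Hspa1b, chr17:34959239-34959488 (- strand): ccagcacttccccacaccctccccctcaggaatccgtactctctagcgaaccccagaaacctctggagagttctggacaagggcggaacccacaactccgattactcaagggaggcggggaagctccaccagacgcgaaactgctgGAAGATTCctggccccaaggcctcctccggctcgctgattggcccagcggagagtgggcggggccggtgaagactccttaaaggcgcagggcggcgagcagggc
Hspb1, chr5:135887669-135887918 (+ strand): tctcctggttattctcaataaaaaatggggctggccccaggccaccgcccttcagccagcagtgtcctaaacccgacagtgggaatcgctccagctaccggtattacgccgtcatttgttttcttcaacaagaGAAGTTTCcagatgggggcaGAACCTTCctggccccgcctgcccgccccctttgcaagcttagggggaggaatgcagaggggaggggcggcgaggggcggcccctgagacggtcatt
Hsph1, before the start, chr5:149636351-149636380 (- strand): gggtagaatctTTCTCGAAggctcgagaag
Hsph1, after the start, chr5:149636287-149636316 (- strand): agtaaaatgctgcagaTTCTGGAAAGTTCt

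Hspa1a and Hspa1b each held 1 match, GAAGATTC, at -104 to -97 from the start. Hspb1 held GAAGTTTC at -117 to -110 and GAACCTTC at -97 to -90. Hsph1 held TTCTCGAA at -33 to -26 and a run of 3 units at 37 to 49 after the start. A second RefSeq entry of Hsph1, with another start, puts the same matches at -54 to -47 and at 16 to 28. Hspa4 and Dnajb1 had no match in this window. A match describes letters and shows no binding, and elements that depart from these letters were not searched for. Hsph1 and the low-count Hspa1b with matches, and Hspa4 and Dnajb1 without, were all called higher with 4OHT. Hspb1 with 2 matches was not called. The part of these matches in the response was not tested. The promoters of Hspa1a and Hspa1b differed at 3 of 250 bases, and 58.8% of the 50-base words of the Hspa1a transcript also occur in Hspa1b. Reads of this pair could therefore be split between them or left out by the counting, and both values are uncertain.

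With 4OHT and no inhibitor, 6 of the 9 tested genes rose: Hsph1, Hspa8, Dnajb1, Hspa4, Hsf1 and Hspa1b. In the same comparison 52% of all genes tested were called, 25.7% as higher and 26.3% as lower. The median log2 change of the 9 genes was 0.66, beside -0.02 over all genes. For 8 of the 9, every 4OHT library lay above both DMSO libraries, which held for 32.3% of all genes. The rises were moderate, from 1.40-fold for Hsf1 to 2.24-fold for Hsph1 leaving aside the low-count Hspa1b, and the stress-inducible pair stayed near the floor of detection. Scaled by library totals alone, the median gene stood at -0.32 and 6119 of 14907 genes were called, 21.2% of these as higher. On that scale Hsph1 (0.86), Hspa8 (0.48) and Hspa1b (1.23) were called, Hsf1 (0.19), Hspa4 (0.25) and Dnajb1 (0.37) were not, and Hspb1, not called on either scale, turned negative.

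**Figure D1:**
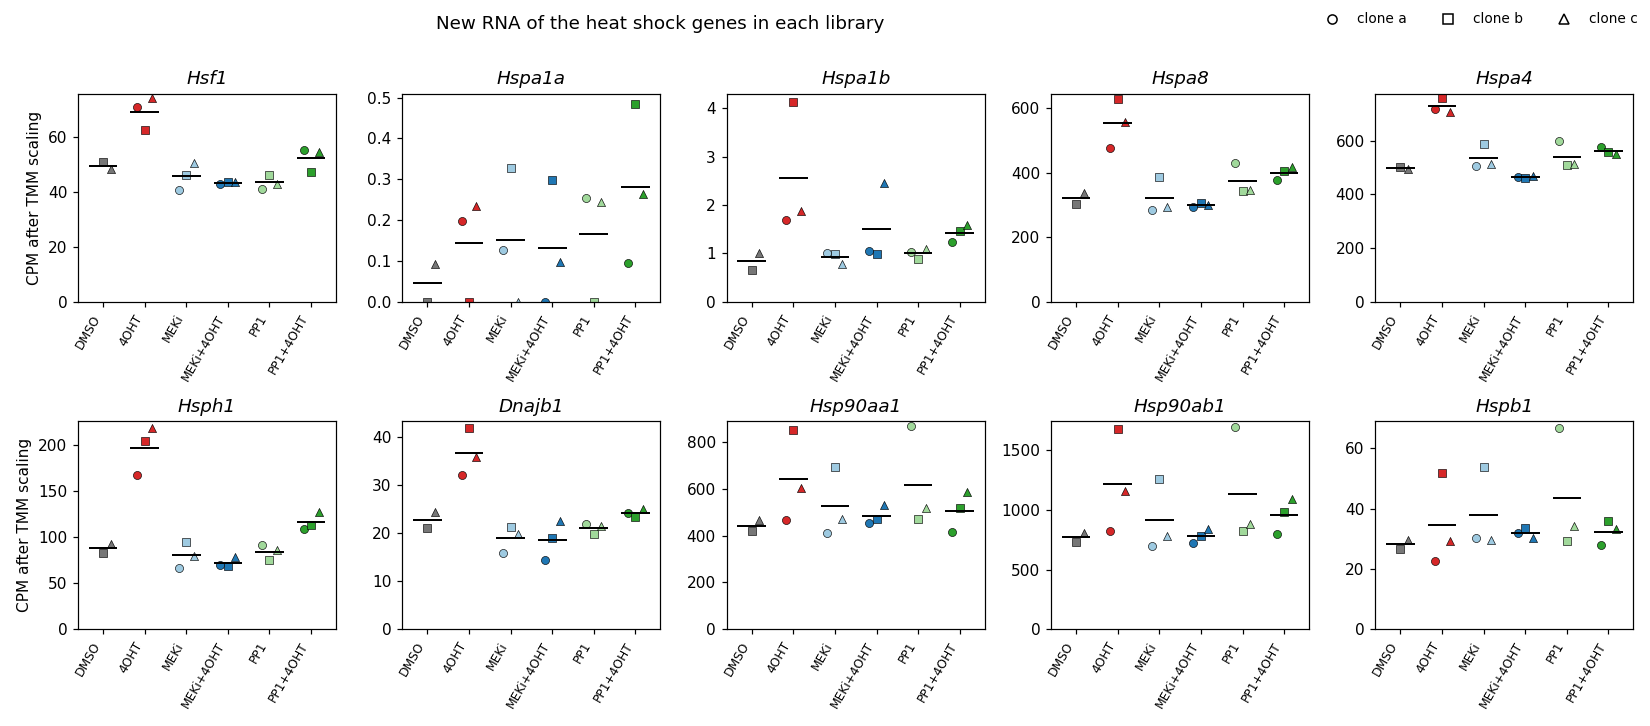
New RNA of each of the 10 heat shock genes by treatment group, as CPM after TMM scaling on a linear axis from 0 (points are libraries, marker shapes are clones, bars are group means). The red 4OHT points lie above the DMSO points without overlap for Hsf1, Hspa1b, Hspa8, Hspa4, Hsph1, Dnajb1, Hsp90aa1 and Hsp90ab1, while single high libraries of the 4OHT, MEKi and PP1 groups set the spread of Hsp90aa1, Hsp90ab1 and Hspb1.

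Hsf1 (ENSMUSG00000022556.11, mm10 chr15:76477422-76501913), the regulator of the family, stood at 50.9 and 48.2 CPM in the DMSO libraries and at 70.7, 62.5 and 74.0 CPM with 4OHT. The groups did not overlap, and the log2 change was 0.48 ± 0.10 (edgeR adjusted p = 0.000376). With MEKi and 4OHT the 3 libraries lay together at 42.9, 43.5 and 43.6 CPM. Those with PP1 and 4OHT were at 55.1, 47.2 and 54.4 CPM, between the other 4OHT groups. New RNA of the gene says nothing of how much HSF1 protein was active. Among the 5 other heat shock factor genes and regulators, Hsbp1, which encodes a binding protein of HSF1, rose by 0.60 on the log2 scale. Of the 5, 0 rose and 2 fell with library totals alone (median -0.15, or 0.17 above that of all genes). Hsf2bp, named as a binding partner of HSF2, fell by 1.44 and Hsf5, another factor of the family, fell by 0.69. Hsf2 itself changed by 0.16 and was not called (edgeR adjusted p = 0.0957).

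Hspa8 (ENSMUSG00000015656.17, chr9:40800984-40810087) encodes the constitutive HSP70 of the cytosol. It was at 302 and 338 CPM in DMSO and at 477, 628 and 557 CPM with 4OHT, with no overlap. The log2 change was 0.79 ± 0.13 (edgeR adjusted p = 4.52e-05), and the call held in all 15 alternative analyses of this comparison. Introns of Hspa8 contain the small nucleolar RNA genes Snord14c, Snord14d and Snord14e on the same strand, whose reads could not be told apart from those of the host gene.

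The stress-inducible HSP70 genes Hspa1a (ENSMUSG00000091971.3, chr17:34969190-34972156) and Hspa1b (ENSMUSG00000090877.3, chr17:34956436-34959238) are single-exon genes on the same strand, with starts 12918 bp apart. Hspa1a had 0 to 5 counts in every library, 1 count over the DMSO group and 4 over the 4OHT group. A count of 0 in the DMSO library of clone b allows up to 0.247 CPM, so no difference was detectable for Hspa1a at this depth. It also overlaps Gm20481 on the other strand, and the strand setting is not known. Hspa1b had 8 and 11 counts in DMSO and 17, 24 and 16 with 4OHT, or 0.658 and 1.02 CPM against 1.69, 4.13 and 1.87 CPM. The 3 libraries with 4OHT lay above both controls. The log2 change of 1.54 ± 0.48 (edgeR adjusted p = 0.00971) rested on these few counts. The call was lost without the 4OHT library of clone b (1.09, adjusted p = 0.0711) and without the DMSO library of clone b (1.29, adjusted p = 0.105). With the counts of both genes added, the change was 1.56 (adjusted p = 0.0077).

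Hsph1 and Hspa4 encode HSP110 proteins, the nucleotide exchange factors of HSP70. Hsph1 (ENSMUSG00000029657.15, chr5:149614287-149636376) was at 82.0 and 92.8 CPM in DMSO and at 167, 204 and 218 CPM with 4OHT. The groups were far apart, and the log2 change was 1.17 ± 0.13, a 2.24-fold rise (edgeR adjusted p = 1.28e-07). Hspa4 (ENSMUSG00000020361.13, chr11:53259814-53300457) was the least variable tested gene of the set within groups, at 500 and 494 CPM in DMSO and 718, 760 and 705 CPM with 4OHT. Its log2 change of 0.55 ± 0.08 was called (edgeR adjusted p = 2.66e-06), and the call was lost with library totals alone (0.25, edgeR adjusted p = 0.18). Within groups its log2 SD was 0.08, beside a median of 0.19 over all genes.

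Dnajb1 (ENSMUSG00000005483.10, chr8:83608193-83612653), the J-domain partner of HSP70 in the stress response, was at 20.96 and 24.4 CPM in DMSO and at 31.9, 41.8 and 35.8 CPM with 4OHT. The groups did not overlap, and the log2 change was 0.68 ± 0.15 (edgeR adjusted p = 0.000708). Of the 12 other J-domain genes examined, 6 were called higher and 3 lower, beside 25.7% and 26.3% of all genes, with a median of 0.27. Dnaja1, an abundant cytosolic J-domain protein, rose by 1.02 ± 0.07, from 123 ± 0.845 CPM (SD, n = 2) to 249.1 ± 10.4 CPM (SD, n = 3). Dnajb5 rose by 1.28 ± 0.18 and Dnajc5, which encodes the synaptic vesicle cysteine string protein, by 0.58 ± 0.07. Dnajb14, a J-domain protein of the endoplasmic reticulum membrane, fell by 1.01 ± 0.15. Calls thus went both ways among J-domain genes. Scaled by library totals alone, 3 were called higher and 3 lower, with a median of -0.02, or 0.30 above that of all genes.

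The HSP90 genes were not called by edgeR in any of the 10 comparisons, and none had an unadjusted p under 0.05, although Hsp90ab1 had the highest level per length of the 10 genes. Hsp90aa1 (ENSMUSG00000021270.13, chr12:110690605-110702728), the stress-inducible HSP90, was at 420 and 467 CPM in DMSO and at 468, 852 and 605 CPM with 4OHT. The lowest 4OHT library barely exceeded the higher control, and the log2 change of 0.53 ± 0.32 did not pass (edgeR adjusted p = 0.187). Hsp90ab1 (ENSMUSG00000023944.14, chr17:45567775-45573271), the constitutive HSP90, was at 736 and 811 CPM in DMSO and at 822, 1676 and 1159 CPM with 4OHT, a log2 change of 0.66 ± 0.37 (adjusted p = 0.164). Hspb1 (ENSMUSG00000004951.10, chr5:135887919-135889563), a small heat shock protein that holds unfolded proteins without ATP, was at 26.5 and 29.7 CPM in DMSO and at 22.7, 51.8 and 29.3 CPM with 4OHT. These groups overlapped, and its change was 0.26 ± 0.39 (adjusted p = 0.606).

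These 3 genes varied more within groups than the others with comparable counts. Their within-group SD on the log2 scale was 0.34 for Hsp90aa1, 0.40 for Hsp90ab1 and 0.44 for Hspb1, beside 0.16 for Hspa8. Each was highest in the same 3 libraries: clone b with 4OHT, clone b with MEKi and clone a with PP1, where Hsp90ab1 was at 1676, 1263 and 1697 CPM and Hspb1 at 51.8, 53.9 and 66.8 CPM. Within their groups Hspa8, Hspa4 and Dnajb1 also peaked in these 3 libraries, Hspa8 at 628, 387 and 431 CPM. Hsph1 did so with MEKi and PP1, Hspa1b with 4OHT only and Hsf1 in none. The same libraries had the smallest effective sizes (5806788, 6120068 and 3921253 counts) and the largest shares of counts in 14 high-count loci (28.9%, 32.6% and 42.0%, beside 9.38% to 21.7% in the others). A list of 12 long-lived abundant mRNAs such as Gapdh and Eef1a1 was written after the values of the heat shock genes were seen. Their summed level was 9446, 6745 and 8123 CPM in those libraries and 4481 to 7642 CPM in the others. In 4OHT against DMSO 5 of these 12 rose, beside 25.7% of all genes, with a median of 0.60. The part of these features in the spread and in the 4OHT response was not tested. Without the 3 libraries, an alternative chosen after seeing the data, Hsp90aa1 changed by 0.27 (adjusted p = 0.207), Hsp90ab1 by 0.35 (adjusted p = 0.123) and Hspb1 by -0.12 (adjusted p = 0.495). Hsph1 (1.13), Hspa8 (0.69), Dnajb1 (0.57), Hsf1 (0.54) and Hspa4 (0.51) kept their calls, and Hspa1b lost its call (1.08, adjusted p = 0.085).

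**Figure D2:**
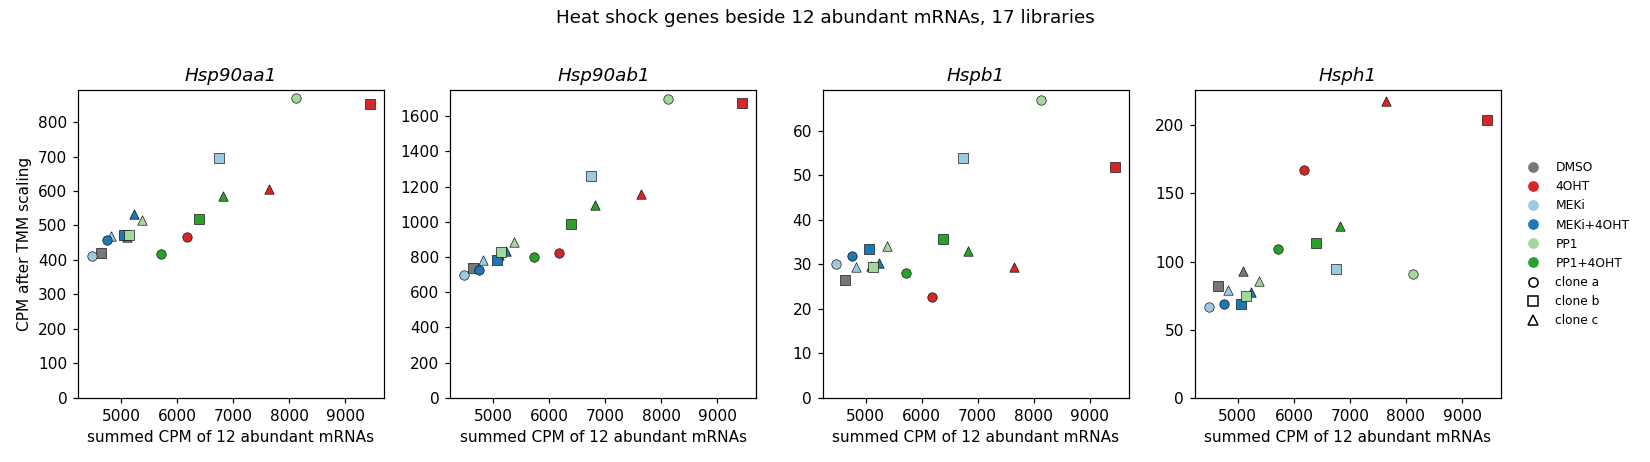
CPM of Hsp90aa1, Hsp90ab1, Hspb1 and Hsph1 (vertical axes, from 0) against the summed CPM of 12 abundant mRNAs (horizontal axis, not from 0), 1 point per library, coloured by group with clones as shapes. Libraries with a high sum, PP1 clone a at 8123 and 4OHT clone b at 9446 CPM, are also the highest for Hsp90aa1 and Hsp90ab1, whereas Hsph1 is highest in the 3 libraries with 4OHT alone and stands at 91.0 CPM in PP1 clone a.

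The MEK inhibitor was used to ask whether the response to 4OHT passes through MEK. With it, edgeR called 1 of the 9 genes for 4OHT, as lower, where 14.7% of all genes were called and 7.03% were lower. The same number, 1, had an unadjusted p under 0.05, and DESeq2 and limma-voom also called 1. That gene, Hspa4, went from 505, 587 and 513 CPM with MEKi to 466, 460 and 467 CPM with MEKi and 4OHT, a log2 change of -0.20 ± 0.07 (edgeR adjusted p = 0.0489). The call was lost without either the clone a or the clone b library of MEKi, or without any single library of MEKi with 4OHT, with adjusted p up to 0.2. Hsph1 was at 66.7, 94.8 and 79.4 CPM with MEKi and at 69.1, 68.9 and 78.0 CPM with both, and its change was -0.15 ± 0.12 (adjusted p = 0.424). Values were -0.10 ± 0.11 for Hspa8, -0.08 ± 0.10 for Hsf1 and -0.03 ± 0.15 for Dnajb1, none of them called. Scaled by library totals alone, the values of Hsph1, Hspa8, Hsf1 and Dnajb1 turned positive (0.03, 0.09, 0.09 and 0.14, beside 0.17 for the median gene) and Hspa4 was not called.

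The difference between the 4OHT effects with and without MEKi was tested directly. It passed for 5 of the 9 genes, all in the direction of a smaller rise, beside 40.4% of all genes in either direction and 19.3% in this one. It was -1.32 ± 0.17 on the log2 scale for Hsph1 (edgeR adjusted p = 2.7e-06), -0.89 ± 0.17 for Hspa8 (adjusted p = 0.000401), -0.75 ± 0.10 for Hspa4 (adjusted p = 3.38e-06), -0.70 ± 0.21 for Dnajb1 (adjusted p = 0.0105) and -0.57 ± 0.14 for Hsf1 (adjusted p = 0.00236). For Dnajb1 the call was lost without the DMSO library of clone b (-0.64, adjusted p = 0.051) and without the 3 small libraries (-0.54, adjusted p = 0.0513). Set against 4OHT alone, MEKi with 4OHT was called lower in 5 of the 9 genes, with log2 changes of -1.45 for Hsph1, -0.97 for Dnajb1, -0.88 for Hspa8, -0.68 for Hsf1 and -0.65 for Hspa4. Here 56.8% of all genes were called, 28.4% as lower. Hspa1b, at -0.70 ± 0.40 (adjusted p = 0.138), was called only without the MEKi and 4OHT library of clone c (-1.26, adjusted p = 0.0189). With library totals alone 1 interaction call, that of Hsph1, remained, where 5498 of 14907 genes were called. These comparisons share the 4OHT libraries.

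PP1 was used to block the ERK2 Q103A kinase itself. With PP1, 2 of the 9 genes still rose with 4OHT, where 31.3% of all genes were called and 18.4% were higher. Hsph1 went from 91.0, 75.1 and 85.8 CPM with PP1 to 109, 113 and 126 CPM with both, without overlap, a log2 change of 0.48 ± 0.12 (edgeR adjusted p = 0.00349). Hsf1 went from 41.1, 46.1 and 43.0 CPM to 55.1, 47.2 and 54.4 CPM (0.26 ± 0.10, adjusted p = 0.0444), but under DESeq2 (adjusted p = 0.0847) and limma-voom (adjusted p = 0.0603) it was not called, nor without any one of the clone a and c libraries of either group (adjusted p up to 0.218). Hspa8 was at 431, 345 and 346 CPM with PP1 and at 376, 405 and 417 CPM with both (0.10 ± 0.11, adjusted p = 0.535). Without the 3 small libraries this change was 0.19 (adjusted p = 0.0376). Dnajb1 changed by 0.21 ± 0.15 (adjusted p = 0.3) and Hspa4 by 0.06 ± 0.07 (adjusted p = 0.557).

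The 4OHT effect was smaller with PP1 than without inhibitor for 3 of the 9 genes, beside 26.5% of all genes called in either direction and 11.4% in this one. The difference was -0.69 ± 0.17 for Hspa8 (edgeR adjusted p = 0.00587), -0.69 ± 0.17 for Hsph1 (adjusted p = 0.00473) and -0.49 ± 0.10 for Hspa4 (adjusted p = 0.0011). For Hspa8 it was not called without the DMSO library of clone b (adjusted p = 0.0556). Dnajb1, at -0.47 ± 0.21, did not pass (adjusted p = 0.105), but did with clone as a replicate block (-0.52, adjusted p = 0.0379) and without the 4OHT library of clone a (-0.63, adjusted p = 0.0385). Hsf1, at -0.23 ± 0.14, did not pass either (adjusted p = 0.255). With library totals alone the PP1 interaction gave 0 calls among the heat shock genes, beside 4163 of 14907 genes, its median over all genes being 0.45. Against 4OHT alone, PP1 with 4OHT was called lower for 5 genes, with log2 changes of -0.76 for Hsph1, -0.59 for Dnajb1, -0.47 for Hspa8, -0.41 for Hsf1 and -0.38 for Hspa4, where 41.9% of all genes were called and 20.5% were lower.

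**Figure D3:**
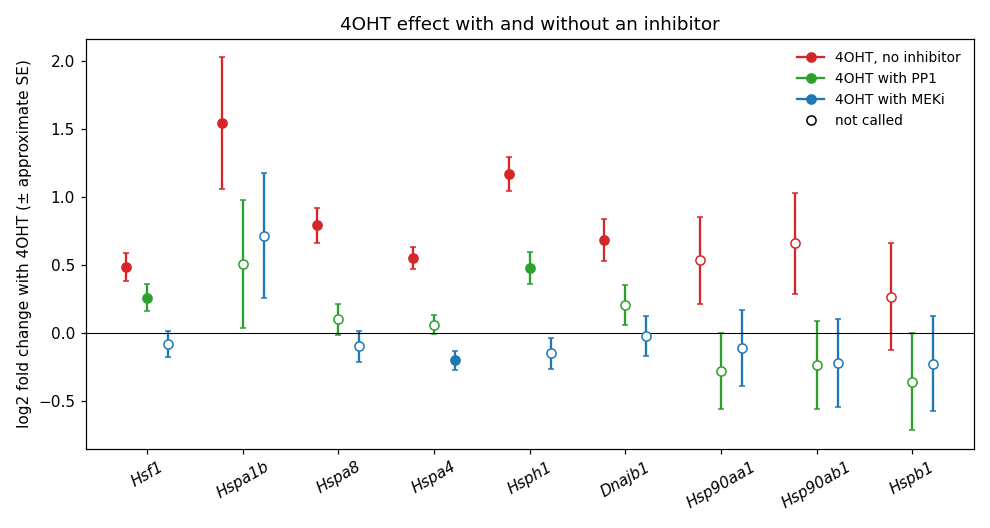
Log2 change with 4OHT (± approximate SE) of the 9 tested genes without inhibitor, with PP1 and with MEKi. Filled points were called at an edgeR adjusted p under 0.05 and open points were not. For Hsph1 the 3 values step down from 1.17 to 0.48 to -0.15, and the bars of Hspa1b, Hsp90aa1, Hsp90ab1 and Hspb1 are the widest.

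In the presence of 4OHT the inhibitors left different levels. PP1 with 4OHT was called higher than MEKi with 4OHT for 4 of the 9 genes, beside 28.2% of all genes called and 15.2% higher. Hsph1 was 0.69 ± 0.11 higher on the log2 scale (edgeR adjusted p = 8.43e-05), with 109 to 126 CPM against 68.9 to 78.0 CPM. Hspa8 was 0.41 ± 0.11 higher (adjusted p = 0.0105), with 376 to 417 CPM against 294 to 305 CPM, Hspa4 0.27 ± 0.07 higher (adjusted p = 0.00436) and Hsf1 0.27 ± 0.09 higher (adjusted p = 0.0344). The libraries of these groups did not overlap for 5 of the 9 genes, all higher with PP1, which held for 24.6% of all genes. Dnajb1, 0.37 ± 0.14 higher, just missed (adjusted p = 0.0531) and passed with clone as a replicate block (0.39, adjusted p = 0.0196) and without the MEKi and 4OHT library of clone c (0.51, adjusted p = 0.0172). The calls of Hsf1 and Hspa8 were each lost when certain single libraries of either group were left out, with adjusted p up to 0.133 and 0.079. Leaving out 1 library at a time gave 2 or 3 calls in place of 4.

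Without 4OHT, no effect of either inhibitor on a heat shock gene passed the test. No member of the set was called for MEKi against DMSO, where 0.53% of all genes were, or for PP1 against DMSO, where 0.241% were. In both comparisons 0 of the 9 genes had an unadjusted edgeR p under 0.05, and DESeq2 and limma-voom also called 0. The log2 changes with MEKi ran from -0.26 ± 0.16 for Dnajb1 to 0.41 ± 0.39 for Hspb1. With PP1 they ran from -0.18 ± 0.11 for Hsf1 to 0.56 ± 0.40 for Hspb1. The largest value in each case was that of Hspb1, which was high in MEKi clone b and PP1 clone a. With PP1, Hsp90ab1 (0.55 ± 0.37) and Hsp90aa1 (0.48 ± 0.32) also had values as large as some called rises with 4OHT, with wider errors, so changes of that size cannot be told from none at this spread. The PP1 libraries did not overlap those of DMSO for 5 of the 9 genes, with Hspa4, Hspa8, Hsp90aa1 and Hsp90ab1 higher and Hsf1 lower, beside 28.5% of all genes in either direction. For MEKi this held for 1, Hspa4, which was higher, beside 26.8% of all genes.

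Other parts of the chaperone network, taken as lists, moved to different extents with 4OHT alone. All 7 tested subunit genes of CCT/TRiC, the cytosolic chaperonin that folds actin and tubulin, rose, with a median log2 change of 0.54. Cct3 rose by 0.51 ± 0.11, Cct7 by 0.46 ± 0.10, Cct2 by 0.54 ± 0.13 and Tcp1 by 0.57 ± 0.14. The 4OHT effect on all 7 was smaller with MEKi than without, by the interaction test, beside 19.3% of all genes called in this direction. This direction was also called for 6 of the 12 J-domain genes and for 8 of the 20 HSP70 and HSP90 co-chaperones below. In these 2 lists 2 and 1 genes were called in the other direction. With library totals alone no CCT gene was called in either comparison: the median change was 0.23, or 0.55 above the median of all genes, Cct4 turned from 0.29 to -0.02, and its interaction turned to 0.14. Of 20 co-chaperones of HSP70 and HSP90, 11 rose and 1 fell, with a median of 0.38. With library totals alone 2 rose and 2 fell, the median was 0.09, or 0.40 above that of all genes, and Sugt1 turned from 0.28 to -0.01. Ptges3, the HSP90 co-chaperone p23, rose by 0.60 ± 0.07, Bag3, an HSP70 co-chaperone that responds to stress, by 0.86 ± 0.10, Ppid, a cyclophilin that binds HSP90, by 0.57 ± 0.08 and Ahsa2, an activator of HSP90 ATPase, by 0.74 ± 0.11. Bag3 was called higher with 4OHT in the presence of MEKi too, by 0.37 ± 0.09 (edgeR adjusted p = 0.00859). This rise was smaller than that without MEKi, by the interaction test (-0.48, edgeR adjusted p = 0.0071). Sugt1 was also called higher with 4OHT in the presence of MEKi, by 0.23 (edgeR adjusted p = 0.00998). Its MEKi interaction was not called (-0.05, edgeR adjusted p = 0.674).

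Of 8 mitochondrial chaperone genes 3 rose and 1 fell (median 0.22), and with library totals alone 2 fell and the median was -0.08, or 0.23 above that of all genes. Hspa9, the mitochondrial HSP70, rose by 0.46 ± 0.11, its exchange factor genes Grpel1 by 0.40 ± 0.11 and Grpel2 by 0.35 ± 0.12, and Trap1, the mitochondrial HSP90, changed by -0.27 ± 0.09. Of 12 endoplasmic reticulum chaperone genes 1 rose and 1 fell (median -0.06): Dnajb9 by 0.51 ± 0.11 and Dnajc3, an inhibitor of the kinase PERK, by -0.73 ± 0.11. With library totals alone 5 fell and the median was -0.36, or -0.04 relative to that of all genes. Among 11 other HSP70 family and small heat shock genes 3 rose and 3 fell, or 1 rose and 4 fell with library totals alone (median -0.51, or -0.19 relative to that of all genes). Hspa12a fell by 1.87 ± 0.17, from 19.9 ± 2.15 CPM (SD, n = 2) to 5.44 ± 0.218 CPM (SD, n = 3), and Hspb8, the small heat shock partner of BAG3, fell by 1.39 ± 0.18, from 40.8 ± 4.83 to 15.7 ± 2.44 CPM. Both were called higher with 4OHT in the presence of MEKi, by 0.55 ± 0.14 and 0.53 ± 0.15. Hspa13 rose by 0.59 ± 0.12 and Hspb6 by 1.16 ± 0.26. In the presence of MEKi Hspa13 was called higher with 4OHT too, by 0.38 (edgeR adjusted p = 0.0246). Its MEKi interaction was not called (-0.20, edgeR adjusted p = 0.344). Whether a list differs from other genes was not tested. For counts after TMM scaling the background is the share of all genes called in 4OHT against DMSO, 52%, with 25.7% higher and 26.3% lower. With library totals alone it is 6119 of 14907 genes called, 21.2% of these calls being higher.

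**Figure D4:**
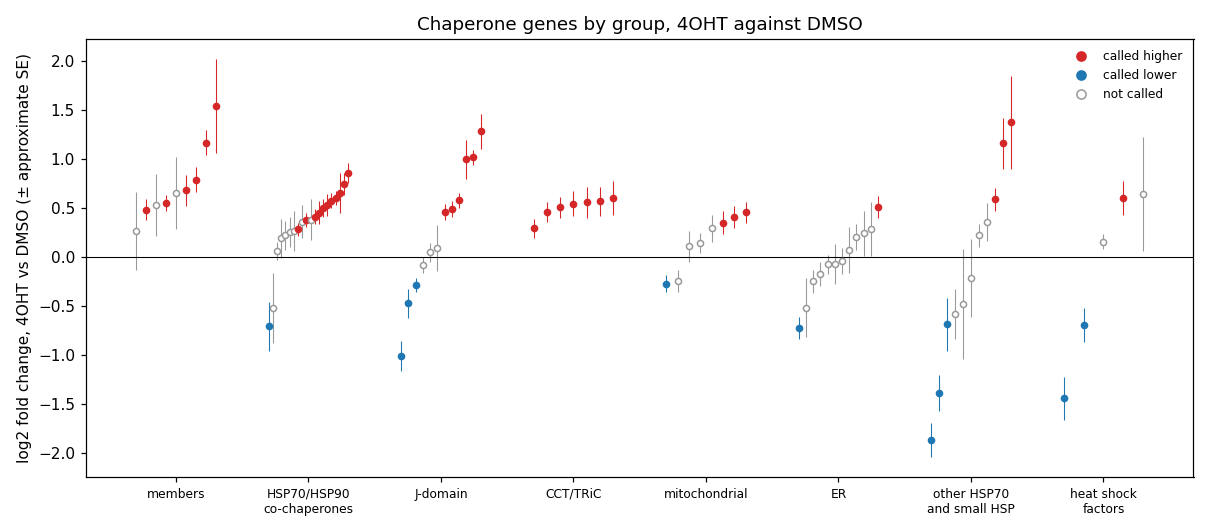
Log2 change, 4OHT against DMSO (± approximate SE), of every tested gene of the 10 heat shock genes and 7 chaperone lists, sorted within each list. Filled points were called higher (red) or lower (blue) and open points were not called. The 7 CCT/TRiC genes all lie above 0, while the other HSP70 and small heat shock genes spread from -1.87 to 1.38.

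Levels of different genes were compared per length in the DMSO group. Per kilobase of exon, Hsp90ab1 stood first at 258 ± 17.8 CPM per kb (SD, n = 2), then Hsp90aa1 at 113 ± 8.51, Hspa4 at 89.9 ± 0.847, Hspa8 at 74.5 ± 5.88, Hspb1 at 27.2 ± 2.22, Hsph1 at 12.03 ± 1.05, Dnajb1 at 7.08 ± 0.765, Hsf1 at 6.98 ± 0.266, Hspa1b at 0.299 ± 0.0909 and Hspa1a at 0.0156 ± 0.022. Dnajb1 and Hsf1 were within their SD of each other, and the other neighbours lay further apart than their SDs. Whether introns were counted is not given in the sources used here, and Hspa4 spans 40644 bp with 5528 bp of exon. Per kilobase of the whole gene Hspa4 took the fifth place, at 12.2 CPM per kb, behind Hsp90ab1 (141), Hsp90aa1 (36.6), Hspa8 (35.2) and Hspb1 (17.1). On this scale Hsp90aa1 (36.6 ± 2.76) and Hspa8 (35.2 ± 2.78) were within their SD of each other. Hsp90ab1 led on both scales, and the stress-inducible HSP70 pair was last on both.

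Across the 6 groups the patterns of the genes were compared by the root mean square difference of their centred group means of log2 CPM. Hsp90aa1 and Hsp90ab1 were the closest pair (0.081), followed by Hsf1 and Hspa4 (0.101) and by Hspa8 and Dnajb1 (0.106). The group means of both HSP90 genes include the small libraries in which each was highest. The part of those libraries in this likeness was not tested. Hsph1 and Hspb1 were the farthest apart (0.537). The genes outside the set closest to the mean profile of the 9, among 12207 candidates with a median distance of 0.318, were Eif4g2 (0.0155), Slc16a1 (0.0242), Hnrnpk (0.0269), Ccdc112 (0.0393) and Pkm (0.0393). Eif4g2 encodes a translation initiation factor, Slc16a1 a lactate transporter, Hnrnpk an RNA-binding protein and Pkm pyruvate kinase. With 6 groups and many candidates, close matches of this kind describe the data and say nothing of shared control.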

How the data were processed

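New RNA was measured in 17 libraries of 6 groups. The authors deposited raw whole-number counts per gene symbol, 1 column per library. STAR, featureCounts and the build mm10 are named in the submitters' processing notes. What was counted (exons or whole genes), on which strand, with which annotation and with what treatment of multi-mapping reads is not given in the sources used here. Gene identifiers and positions come from GENCODE vM21.

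From the deposited counts, edgeR 4.0.16 (R 4.3.3) computed TMM factors, dropped low-count genes by group with filterByExpr and fitted 1 robust quasi-likelihood model to the 17 libraries, each group having its own term (14907 genes, 11 residual degrees of freedom, common biological coefficient of variation 0.0977). Of 10 comparisons, 8 set 2 groups against each other and 2 were interactions, each adjusted by Benjamini-Hochberg over all genes tested. The approximate standard error is the absolute log2 change over the square root of the F statistic. The fit was also run on simulated counts in which few genes changed, evenly in both directions. That run cannot test the scaling where many genes change. In depth, 3 counts equal 0.247 to 0.765 CPM, and such limits cover counting error only.

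The 10 genes were always named. From each chaperone list up to 4 genes were named, those of smallest adjusted p in 4OHT against DMSO. Cct4 and Sugt1 fall outside this rule and were named after their values were seen. The 5 genes of like pattern were taken among genes of average log2 CPM of at least 1, passing over predicted symbols. The genes, the lists and the tests were chosen with earlier results of these data known. Alternatives were DESeq2's size factors, library totals, other count filters, DESeq2 1.42.0, limma-voom (limma 3.58.1), 14 high-count loci left out, only the groups compared, each library left out, clone as a replicate block, and, added after seeing the data, the 3 smallest libraries left out. The labels' clone letters pair the libraries. Deviations from the group means correlated across genes with a mean r of 0.0859 between libraries of the same clone (-0.147 to 0.362, 16 of 40 pairs over 0.1) and -0.0425 between those of different clones.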

Additional observations from a re-analysis of the deposited data

Results flagged for a closer look

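For 8 results the effect of 4OHT differed between conditions by the interaction test of edgeR (Benjamini-Hochberg adjusted over all genes tested). Each value is the log2 effect of 4OHT with an inhibitor minus that without.

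With MEKi the differences were -1.32 for Hsph1 (adjusted p = 2.7e-06), -0.89 for Hspa8 (adjusted p = 0.000401), -0.75 for Hspa4 (adjusted p = 3.38e-06), -0.70 for Dnajb1 (adjusted p = 0.0105) and -0.57 for Hsf1 (adjusted p = 0.00236). With PP1 they were -0.69 for Hspa8 (adjusted p = 0.00587), -0.69 for Hsph1 (adjusted p = 0.00473) and -0.49 for Hspa4 (adjusted p = 0.0011). The comparisons share the 4OHT and DMSO libraries. In the same interactions 40.4% and 26.5% of all genes passed.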

How the results depend on the processing

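With library totals alone, the median of all genes shifted to -0.32 in 4OHT against DMSO, where 21.2% of calls were higher in place of 49.4%. It was 0.17 in MEKi with 4OHT against MEKi (83.0% higher in place of 52.1%), 0.12 in PP1 with 4OHT against PP1 (76.7% in place of 59.0%), 0.40 in MEKi with 4OHT against 4OHT (80.0% in place of 50.02%), 0.23 in PP1 with 4OHT against 4OHT (79.8% in place of 51.1%), -0.14 in PP1 with 4OHT against MEKi with 4OHT (30.7% in place of 53.9%), and 0.48 and 0.45 in the MEKi and PP1 interactions (86.5% and 89.3% in place of 52.3% and 57.0%). The counts of called heat shock genes in these 8 comparisons were then 3, 0, 1, 3, 1, 1, 1 and 0. In the same order, 6119, 1134, 2684, 7335, 4791, 2153, 5498 and 4163 of all 14907 genes tested were called. For 4OHT against DMSO, Hsph1 changed by 0.86, Hspa8 by 0.48 and Hspa4 by 0.25 on that scale, which relative to the shifted median is 1.18, 0.79 and 0.56. Hspb1 turned to -0.06 and was not called on either scale. MEKi with 4OHT against MEKi gave 0 calls without the filter. PP1 with 4OHT against PP1 gave 1 call with DESeq2's size factors, without the filter, with the filter of at least 10 counts, without the high-count loci, with only the groups compared, under DESeq2 and under limma-voom, Hsf1 losing its call each time. Leaving out 1 library at a time gave 0 to 1 calls for MEKi with 4OHT against MEKi, 1 to 2 for PP1 with 4OHT against PP1, and 2 to 3 for PP1 with 4OHT against MEKi with 4OHT. The replicate block changed calls of Dnajb1 only, giving 5 calls in PP1 with 4OHT against MEKi with 4OHT and 4 in the PP1 interaction. No called value of the 10 genes changed sign under any alternative run. Depth limits Hspa1a and Hspa1b, which had at most 5 and 25 counts per library. The unknown treatment of reads that fit both genes may limit them too.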
